A study of Homo sapiens with 1 sample.

Results

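Keratins are the intermediate filament proteins of epithelial cells. A filament is built from pairs of an acidic type I and a basic or neutral type II keratin, and nearly all genes of each type lie side by side in one cluster, type II on chromosome 12 and type I on chromosome 17. KRT18 is the exception, a type I gene that lies next to its partner KRT8 at the end of the type II cluster. Simple, single-layered epithelia such as the kidney tubule and the tumours that arise from it use KRT8 with KRT18 and, in part, KRT7 and KRT19, whereas the other keratins serve stratified epithelia such as epidermis, the root sheath of the hair follicle, or the hair shaft itself.

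The keratin genes were taken as the protein-coding genes of the hg38 annotation whose symbol is KRT followed by a digit, which excludes the keratin-associated protein (KRTAP) genes. There were 55 of them among 20033 protein-coding genes, 27 on chromosome 12 and 28 on chromosome 17. By their known sites of expression, 5 were counted as simple epithelial (KRT7, KRT8, KRT18, KRT19 and KRT20), 23 as stratified and other epithelial, 9 as root sheath and 17 as hair shaft, and KRT222 was left unclassified. Open chromatin was mapped by ATAC-seq, which uses the transposase Tn5 to cut and tag accessible DNA. The cells were 786-O, an established renal cell carcinoma line, carrying the empty vector that the study set against overexpression of DPF3a, a protein of the chromatin remodelling complex SWI/SNF. A peak marks a stretch of open chromatin, its summit is the base with the most overlapping fragments, and its fold is that number, the pileup, plus 1, divided by a background shared by the whole genome plus 1. There was 1 library and no replicate, so no p-value is given. The 95% intervals of folds cover counting error only, fragments were counted without molecular identifiers, and a summit, as the highest point of a peak, lies above its surroundings by choice. The median fold of all 88615 peaks was 10.8, at a pileup of 20.

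The labelled cell type was checked first. The renal factor genes PAX8 and PAX2 had promoter peaks with folds of 31.9 and 22.7, and the mesenchymal genes VIM and CDH2 had folds of 47.9 and 25.8. The VIM peak was at a TSS that is not canonical, and the nearest summit to its canonical TSS was 0.375 kb away. CA9 had no promoter peak. Of 8 marker genes of blood, endothelium and epithelium, EPCAM alone had a promoter peak (12.5%; 0.316 to 52.7), at a TSS that is not canonical. The epithelial cadherin gene CDH1 had none.

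In these cells a few keratin promoters were open and most had no peak. A gene was called open when any of its transcripts had a summit close to its transcription start site (TSS), at most 1 kb before or 100 bp after it. Only 6 of the 55 keratin genes were open (10.9%; exact 95% interval, 4.11 to 22.2), compared with 61.4% of all protein-coding genes. They were KRT7, KRT8, KRT18 and KRT19 among the simple epithelial keratins, and KRT80 and KRT15 among the others. None of the 26 root sheath and hair shaft genes was open.

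Part of the clusters may not have been readable. For 11 keratins the whole promoter has a further copy of at least 95% identity in hg38. For 10 of them (KRT12, KRT20, KRT23, KRT31, KRT33A, KRT33B, KRT34, KRT37, KRT39 and KRT40) the copy lies in alternative sequences that hg38 carries for chromosome 17, and for KRT16 it lies on a primary chromosome. The authors removed reads of low mapping quality. The peak list includes peaks on other alternative sequences but 0 on the 4 that match the type I cluster, and whether the authors' reference held these 4 is not given in the sources used here. At these genes a closed promoter and a loss of reads therefore cannot be told apart, and the keratins without a copied promoter are called readable here. At some readable keratins a smaller part of the promoter has a copy, at most 23.3%, at KRT8. This part was 12.1% at KRT18 and 12.0% at KRT19. Of the readable keratins, 6 of 44 were open (13.6%; 5.17 to 27.4), and 0 of the 19 readable root sheath and hair shaft genes, for which the interval reaches 17.6%.

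The simple epithelial class stood apart from the other keratins in its counts. It had 4 of 5 genes open (80.0%; 28.4 to 99.5), and all 4 readable ones. That interval includes the 61.4% of all protein-coding genes. At the canonical TSS, 3 of the 5 were open, against 52.2% of all protein-coding genes. The stratified and other epithelial class had 2 of 23 (8.70%; 1.07 to 28.0), or 2 of 20 readable ones. Over all 50 keratins that are not simple epithelial the share was 4.0% (0.488 to 13.7). These intervals treat genes as independent draws, which neighbours in a cluster are not, and the difference was not tested.

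**Figure D1:**
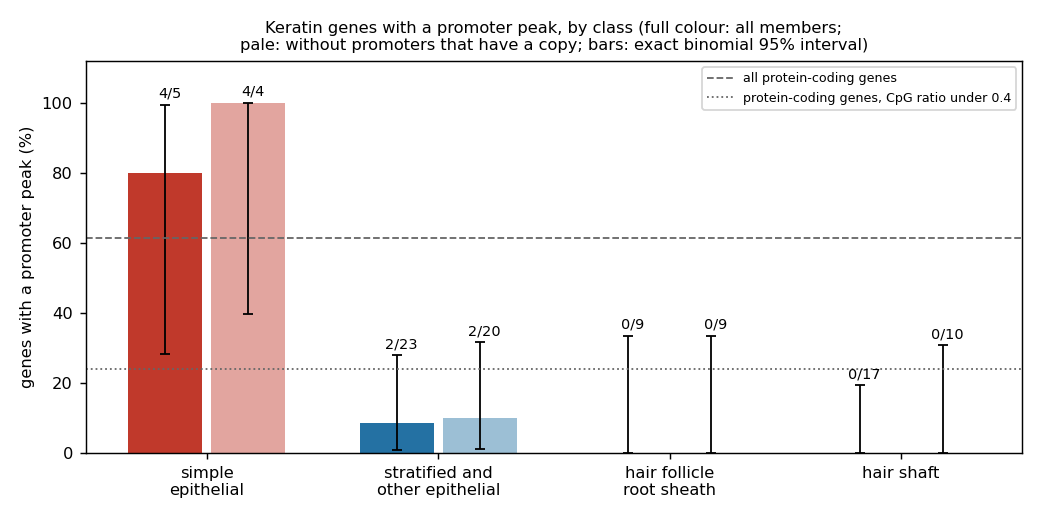
Share of keratin genes with a promoter peak (vertical axis, %) in each class, for all members (full colour) and without genes whose promoter has a copy elsewhere (pale), with exact binomial 95% intervals. The simple epithelial bars, 4 of 5 and 4 of 4 genes, are above the dashed line of all protein-coding genes at 61.4%, the stratified bars are below the dotted line of CpG-poor promoters at 24.0%, and both hair classes are at 0.

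The promoters of KRT18, KRT7 and KRT19 had more CpG than those of all other keratins, whereas KRT8 and KRT20 lay within the range of the other classes. Genes with many CpG dinucleotides at the promoter tend to be broadly active, and CpG-poor promoters tend to belong to tissue-restricted genes. Over the canonical promoter, the ratio of observed to expected CpG had a median of 0.17 over all keratins and 0.63 over all protein-coding genes. It was 0.61 at KRT18, 0.49 at KRT7, 0.48 at KRT19, 0.29 at KRT8 and 0.15 at KRT20. No keratin of the other classes exceeded 0.38. Of the 52 keratins with a ratio under 0.4, 3 were open (KRT8, KRT80 and KRT15), whereas 24.0% of all protein-coding genes with such promoters were, and among the 41 readable ones it was 3 as well. At the canonical TSS, to which the ratio belongs, 2 of the 52 were open, against 13.9% of such genes. Both keratins with a ratio from 0.4 to 0.6 were open, where the share of all genes was 58.3%, but at the canonical TSS 1 of the 2 was, KRT19, against 47.3%. KRT18, the 1 keratin with a ratio of 0.6 or more, was open at its canonical TSS, in a class where 81.1% of genes were open at any TSS and 72.9% at the canonical one.

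**Figure D2:**
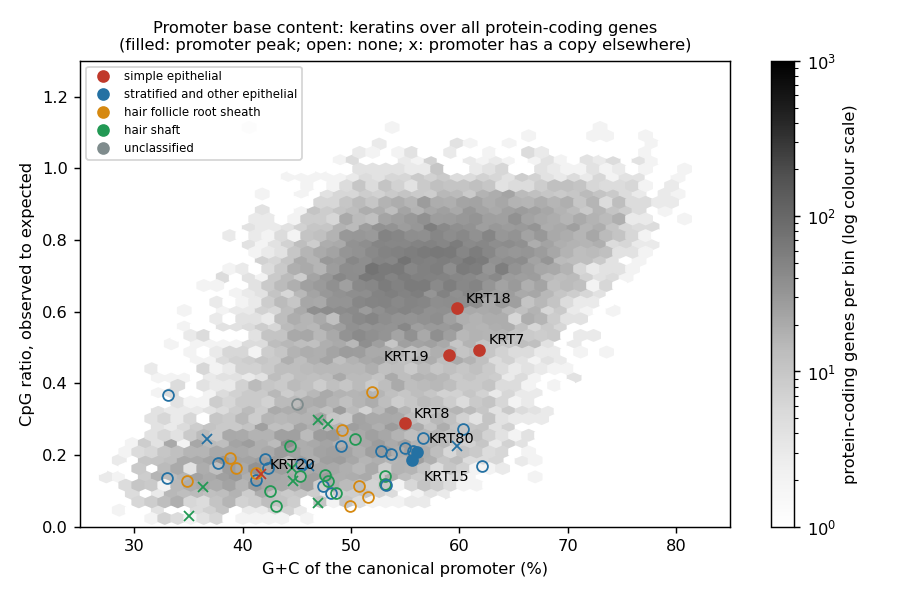
G+C content (horizontal axis, %) against the CpG ratio (vertical axis) of canonical promoters, for keratins (coloured by class) over the density of all protein-coding genes (grey, log colour scale). Filled points have a promoter peak, open points have none, and crosses are genes whose promoter has a copy elsewhere. KRT18, KRT7 and KRT19 lie above all keratins of the other classes, which stay at or below 0.38.

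KRT8 and KRT18 encode the partner keratins that are made first in the embryo and kept in simple epithelia. They are transcribed away from each other at the end of the type II cluster. The 30 bases before the canonical TSS of KRT8 (chr12:52905077-52905106, minus strand) are shown in hg38, 5′ to 3′, with capitals for a TATA box (TATAAA, on both strands). The other line gives 30 bases from intron 1 of KRT18 (chr12:52949924-52949953, plus strand), with the AP-1 site (TGACTCA or TGAGTCA) in capitals.
KRT8 promoter: ccggggctgggatctctTTTATAAAaggcc
KRT18 intron 1: gtggctaaggcTGAGTCAtctaggagtaaa
On the strand of the gene, the TATA sequence of KRT8 begins 11 bases before the TSS, and its use was not tested. The 30 bases shown also hold exon bases of an annotated transcript. Over the 120 bases before all canonical TSSs of protein-coding genes, a longer stretch, 6.08% held the TATA box on either strand.

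At KRT8 (chromosome 12, 52897187 to 52949954, minus strand) the canonical promoter carried a peak of 2574 bp, 52903297 to 52905870. Its summit lay 32 bp upstream of the TSS with a fold of 27.3 (20.5 to 35.7), at a pileup of 52, higher than 83.3% of all peaks. The annotation gives KRT8 18 transcripts, some of which start far upstream, and 3 more summits lay at their start sites. Their folds were 22.2 (16.1 to 29.8) at 2827 bp, 35.6 (27.7 to 44.9) at 22359 bp and 43.3 (34.6 to 53.5) at 44831 bp upstream of the canonical TSS. The KRT8 record held 7 summits, the most of any keratin record, a count not scaled to length. It reaches into KRT18, whose own record holds 2 of them, and all 7 lay outside the canonical transcript of KRT8.

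At KRT18 (52948871 to 52952906, plus strand) accessibility was unequal between the start site and intron 1. The promoter peak, 52948817 to 52949296, had its summit 16 bp downstream of the canonical TSS, in exon 1, and a fold of 8.24 (4.84 to 13.3). Of all peaks, 35.7% were lower. The summit with the fold of 43.3 named above lay 789 bp downstream of the same TSS, in intron 1 of KRT18, and it was higher than 93.8% of all peaks. The intervals of these folds do not overlap. Of the KRT18 promoter, 12.1% has a copy elsewhere, and a loss of reads there was not tested. The AP-1 site printed above begins 28 bp from that summit, and a TEAD site (GGAATG) lies within 50 bp of it as well. Intron 1 of KRT18 is known as the place of an enhancer of this gene. Because the summit also lies at start sites of 8 transcripts assigned to KRT8, it counted as a promoter peak of KRT8 and, being over 100 bp into the gene, not of KRT18.

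KRT7 (52232520 to 52252186, plus strand), the type II keratin of ducts and glands, was counted as open only through a minor transcript. The summit, fold 24.2 (17.9 to 32.1), lay 10918 bp downstream of the canonical TSS, in intron 6, at the start of 1 transcript without a defined coding sequence. No summit lay nearer to the canonical TSS, although its CpG ratio was the second highest of the keratins. KRT7 therefore lost its promoter peak when only canonical or only protein-coding transcripts were used.

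KRT19 (chromosome 17, 41523617 to 41528308, minus strand), the smallest keratin, had a weak promoter peak and a strong site upstream. The 101 bases around the upstream summit (chr17:41530258-41530358, plus strand) are given with capitals for AP-1 and TEAD sites. The AP-1 site TGAGTCA and the TEAD site, CATTCC on this strand, share 2 bases.
KRT19 upstream site: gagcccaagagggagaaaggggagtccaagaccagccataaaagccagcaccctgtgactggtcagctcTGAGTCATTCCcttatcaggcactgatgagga
The promoter summit lay 154 bp upstream of the TSS with a fold of 5.67 (2.99 to 9.99), at a pileup of 10, near the lowest in the list, 9. A further summit 863 bp downstream, in intron 1, had the same fold. The upstream summit, 2000 bp from the TSS, had a fold of 40.7 (32.3 to 50.7), and its interval does not overlap that of the promoter. A part of the KRT19 promoter, 12.0%, has a copy elsewhere, and a loss of reads there was not tested. Another summit of fold 40.7 lay 19805 bp upstream, with an AP-1 and a RUNX site (TGTGGT) within 50 bp.

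KRT20, the keratin of intestinal and urothelial surface cells, was the only simple epithelial keratin without a peak, and it is one of the genes with a copied promoter. Its nearest summit was 66.3 kb away.

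Of the keratins that are not simple epithelial, KRT80 and KRT15 were open. KRT80 (chromosome 12, 52168996 to 52192014, minus strand), a type II keratin found in many epithelia, had the highest fold at a canonical TSS of any keratin. The peak, 52191001 to 52192908, had its summit 212 bp upstream and a fold of 35.6 (27.7 to 44.9), higher than 89.9% of all peaks. This interval overlaps that of the canonical peak of KRT8 (20.5 to 35.7). A second promoter summit, fold 13.9 (9.27 to 20.1), lay 5703 bp downstream at the start of a retained-intron transcript.

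KRT15 (chromosome 17, 41513745 to 41522529, minus strand), a keratin of basal cells, had its summit 3077 bp upstream of the canonical TSS, at the start of 6 other transcripts, with a fold of 22.2 (16.1 to 29.8). The 101 bases around it (chr17:41521917-41522017, plus strand) held a TEAD site, in capitals.
KRT15 site: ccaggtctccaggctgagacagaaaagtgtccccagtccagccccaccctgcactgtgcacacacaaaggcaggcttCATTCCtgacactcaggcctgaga

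**Figure D3:**
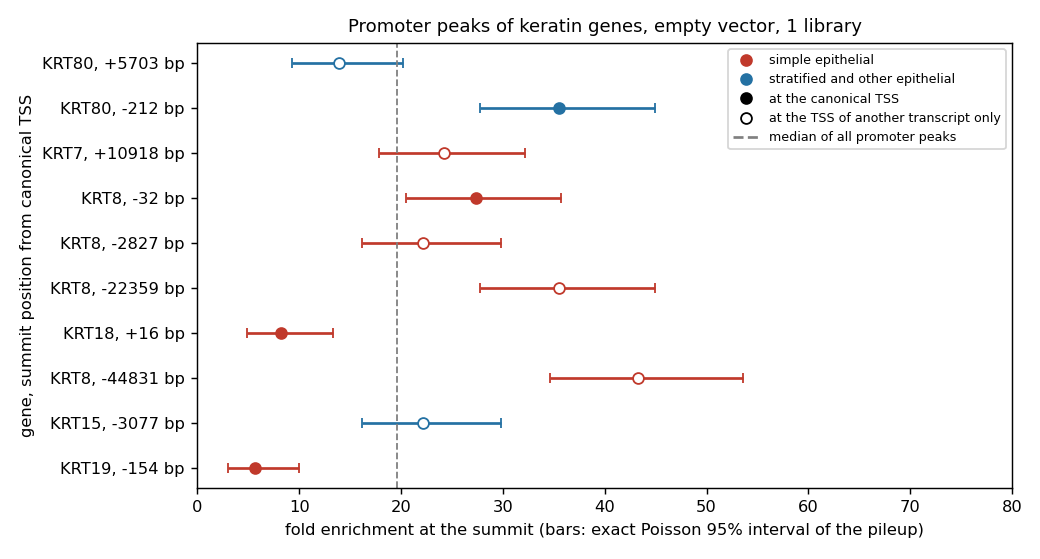
Fold enrichment (horizontal axis) of each promoter peak of a keratin gene with its exact Poisson 95% interval, by gene and summit position from the canonical TSS; filled points are at the canonical TSS. The canonical peaks of KRT80 and KRT8 lie above the median of all promoter peaks, 19.6 (dashed), and those of KRT18 and KRT19 lie below it.

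The other 38 readable keratins had no promoter peak, and 30 of them had no summit anywhere in the gene. Beyond the promoter, copies were sought in alternative sequences only, so a loss of reads inside genes with near-identical relatives was not tested. Their canonical TSS was a median of 8.82 kb from the nearest summit (1.28 to 68.4 kb). A long distance follows in part from choosing genes without a promoter peak. Over all 44 readable keratins, open ones included, the median was 7.42 kb, compared with 0.311 kb over all protein-coding genes. Of the 38 without a promoter peak, 21 had a summit within 10 kb of the TSS, and in 11 it was more than 20 kb away. KRT5, the type II keratin of basal epidermal cells, had a weak site 1643 bp upstream with a fold of 6.70 (3.71 to 11.3), whereas its partner KRT14 had its nearest summit 7194 bp away. For the suprabasal pair, the nearest summit was 40.2 kb from KRT1 and 3645 bp from KRT10.

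Some closed promoters had stronger sites outside the window. KRT79 had a summit of fold 24.2 (17.9 to 32.1) 1778 bp upstream, KRT78 one of 23.2 (17.0 to 31.0) 1278 bp downstream in intron 2, KRT32 one of 18.6 (13.1 to 25.6) 2474 bp downstream in intron 3, and KRT3 one of 17.0 (11.8 to 23.8) 2146 bp upstream. The KRT78 summit lay 237 bp from another TSS of that gene. With 1 kb to both sides of a TSS, or with any overlap of the peak, KRT78 alone was added. This gave 7 keratins against 65.7% of all protein-coding genes. With 2.5 kb on either side, KRT79, KRT78, KRT32, KRT3, KRT5, KRT13 and KRT36 were counted as open, giving 13 keratins against 70.3% of all protein-coding genes.

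**Figure D4:**
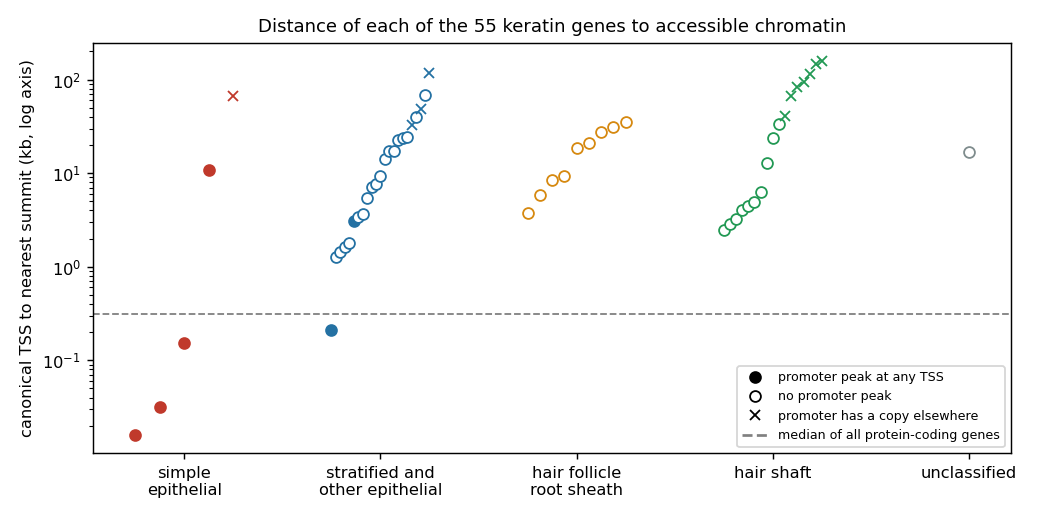
Distance from the canonical TSS of each of the 55 keratins to the nearest summit (vertical axis, kb, log axis) by class. Filled points have a promoter peak, open points have none, and crosses are genes whose promoter has a copy elsewhere. KRT18, KRT8, KRT19 and KRT80 lie below the median of all protein-coding genes, 0.311 kb.

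Accessibility was then followed along each cluster, measured from the first to the last keratin gene record. The type II cluster (chromosome 12, 52168996 to 52952906) held 45 summits in 784 kb, or 57.4 per Mb (exact Poisson 95% interval, 41.9 to 76.8), compared with 30.2 over the genome and 31.2 over chromosome 12. Of these summits, 10 were at promoters of any annotated gene, 16 in introns, 1 in an exon and 18 between genes. Their median fold, 10.8, equalled that of all peaks.

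The summits of the type II cluster gathered at its ends, a division chosen after the map had been seen. The 123 kb from KRT80 to KRT81, which hold KRT7, had 14 summits (114 per Mb; 62.5 to 192), and the 131 kb from KRT79 to KRT18, which hold KRT8, had 16 (122 per Mb; 69.5 to 198). The 530 kb between them, with 19 keratins and no open promoter, had 15 (28.3 per Mb; 15.8 to 46.7). Folds over 20 were seen at 4, 8 and 2 summits in these stretches, in the same order. The longest gap between neighbouring summits, 138 kb, spanned KRT72, KRT73, KRT2, KRT1 and KRT77.

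Both strong summits of the middle stretch lay between KRT75 and KRT6B. Their folds were 41.7 (33.2 to 51.8), 8565 bp upstream of KRT75, and 25.2 (18.8 to 33.3), 6604 bp upstream of it. Neither gene had a promoter peak. The sequences around the summits (chr12:52442886-52442986 and chr12:52440925-52441025, plus strand) are given with the TEAD site in capitals.
KRT75 upstream site, fold 41.7: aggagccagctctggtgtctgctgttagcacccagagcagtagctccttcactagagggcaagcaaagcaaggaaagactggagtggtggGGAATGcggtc
KRT75 upstream site, fold 25.2: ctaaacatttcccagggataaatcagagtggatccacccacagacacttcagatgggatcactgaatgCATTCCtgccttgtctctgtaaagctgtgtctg

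The type I cluster (chromosome 17, 40654665 to 41624842) held 17 summits in 970 kb, or 17.5 per Mb (10.2 to 28.1), below the 37.9 of chromosome 17. The 503 kb with an alternative copy held 0 summits, for which the interval reaches 7.33 per Mb. The remaining 467 kb held all 17, or 36.4 per Mb (21.2 to 58.3), close to the 37.9 of the chromosome. Whether the 503 kb lacked accessible sites or lost its reads cannot be told apart. The longest gap, 324 kb, spanned 6 hair keratins, of which KRT38 alone has no copied promoter, and 16 KRTAP genes.

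Within the type I cluster, 12 of the 17 summits lay in the 165 kb from KRT32 to KRT17, a stretch also chosen after the map had been seen, and so did its 3 summits of fold over 20, at KRT15 and upstream of KRT19. Of the other 5 summits, 4 lay between KRT222 and KRT10, a stretch with the root sheath genes KRT25, KRT26, KRT27 and KRT28, with folds from 5.15 to 8.24, and 1 lay at KRTAP4-6.

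**Figure D5:**
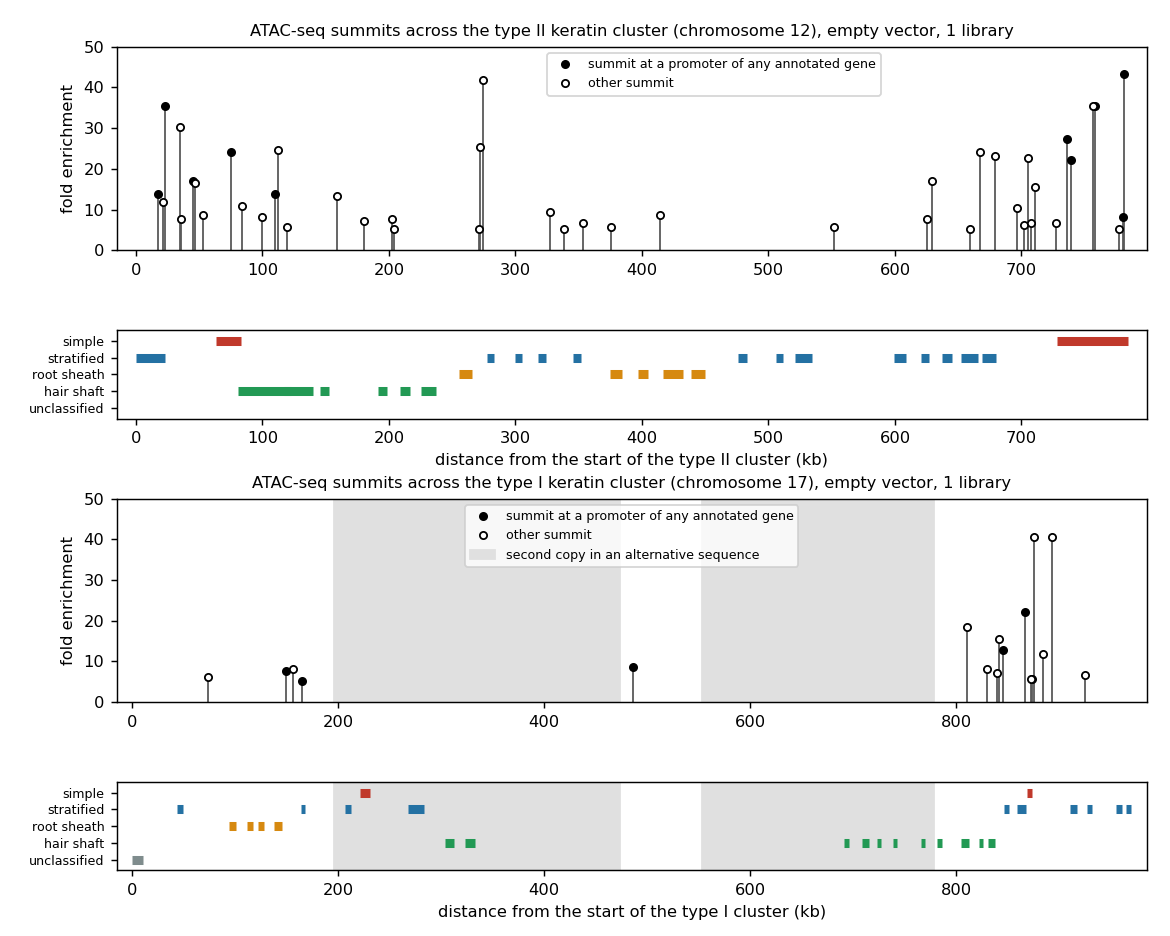
Fold enrichment of every summit (vertical axis) along both clusters (horizontal axis, kb from the cluster start), with gene records by class below and sequence with a further copy shaded. The KRT8 record includes KRT18. Summits of fold over 20 stand at both ends of the type II cluster, at 2 sites between KRT75 and KRT6B, and near KRT15 and KRT19 in the type I cluster, and the shaded parts hold 0 summits.

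The median fold of promoter peaks was 17.8 on chromosome 12 and 16.0 on chromosome 17, compared with 19.6 over the genome. The copy number of both chromosomes was not measured.

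Sequence motifs within 50 bp of the 62 cluster summits were compared with those at all summits, with both strands searched. AP-1 sites were as frequent, at 10 of 62 (16.1%; 8.02 to 27.7) against 15.7% of all summits. TEAD sites were found at 15 of 62 (24.2%; 14.2 to 36.7) against 9.41%, 9 in the type II and 6 in the type I cluster. Among summits of fold over 20, 8 of 17 cluster summits held one (47.1%; 23.0 to 72.2), against 10.1% of 23056. These were the canonical summit of KRT8, the summit in intron 1 of KRT18, the KRT15 site, the KRT19 site at 2000 bp, both sites upstream of KRT75, 1 in intron 2 of KRT86, and 1 inside the KRT8 record. The last, of fold 35.6, lay 20170 bp upstream of the canonical TSS of KRT8. The KRT8 promoter summit of the same fold, 22359 bp upstream, held no TEAD site. The TEAD share was picked out after 10 sequences had been counted, a scrambled AP-1 sequence among them, and no test was made. RUNX sites were found at 7 of 62 (11.3%; 4.66 to 21.9) against 12.6%. The grainyhead site (AACCGGTT), bound by factors of epidermal genes, was found at 0 of 62 cluster summits and at 0.0271% of all summits. The ETS site (CCGGAAGT) was also found at 0 of 62 against 0.513%. GC boxes (GGGGCGGGG), TATA boxes and p53/p63 sites were each found at 1 of 62 (1.61%), against 1.54%, 3.81% and 2.69%, and CTCF sites at 2 of 62 (3.23%) against 2.23%.

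Other intermediate filament genes, and genes that work with keratins, were counted in the same way. Among 15 other intermediate filament genes, 8 were open (53.3%; 26.6 to 78.7), close to the 61.4% of all protein-coding genes. The highest fold was 63.4 (52.7 to 75.6) at LMNB1, which encodes a nuclear lamin, and VIM, the mesenchymal filament gene, had 47.9 (38.7 to 58.7). DES, PRPH, INA, BFSP2 and the neurofilament genes were not open. Of 18 genes of desmosomes and keratin linkers, 9 were open (50.0%; 26.0 to 74.0), with the highest fold at DST, 64.4 (53.7 to 76.7). DSP, which encodes the desmoplakin that anchors keratin filaments, had its nearest summit 36.2 kb from its canonical TSS. Of 15 regulators of epithelial keratin genes, 7 were open (46.7%; 21.3 to 73.4). They were ELF3 (fold 54.1), KLF4 (47.4), KLF5 (46.4), GRHL1 (29.4), GRHL3 (19.1), GRHL2 (16.0) and TFAP2A (14.4), while TP63, the regulator of basal keratins, was not. GRHL2 and GRHL3 were open only at a TSS that is not canonical. The nearest summit to the canonical TSS was 23.6 kb away for GRHL2 but 0.234 kb away for GRHL3.

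The KRTAP genes, which encode the matrix proteins around hair keratins, had the lowest share open of the lists. Of 94, 1 was open (1.06%; 0.0269 to 5.79), against 61.4% of all protein-coding genes. It was KRTAP4-6 in the type I cluster, with a fold of 8.76 (5.23 to 13.9). Of the 94 genes, 27 lie in the sequence of the type I cluster that has an alternative copy. At these a closed promoter and a loss of reads cannot be told apart.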

How the data were processed

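ATAC-seq was analysed in 1 library of 786-O cells with empty vector. Per the study's methods and processing notes, the authors used fastp for trimming and Bowtie2 2.3.4.3 for alignment to hg38, removed mitochondrial reads, reads of low mapping quality and duplicates, and called peaks on this library with MACS2 2.2.6 against 1 genome-wide background. The deposited ratio is a fold, the summit pileup plus 1 over that background plus 1. The deposited −log10 p-value and −log10 q-value, and the deposited score (10 times the −log10 q-value, rounded down), follow from the same pileup. The lowest score was 52. A shift of reads to the Tn5 cut is not given in the sources used here. The deposited peak names carry a WT tag, whereas the labels say empty vector.

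From the folds, whole pileups (9 to 300) were recovered with a background of 0.941, to within 6.14e-05 of a whole number, and given exact Poisson intervals. The lowest fold, 5.15, had an interval of 2.64 to 9.32. Sequencing depth is otherwise unknown, and at a gene without a peak accessibility was not detectable at this depth. Of 88676 peaks, 88615 lay on the 24 primary chromosomes. Start sites and canonical transcripts were from GENCODE release 44, the sequence was the hg38 reference, and the CpG ratio and copies refer to the canonical promoter. Copies were sought with BLAST 2.17.0 (at least 95% identity over 100 bp, covering 50% of the promoter) and minimap2 2.31 (at least 10 kb). Python 3.11.15 and scipy 1.17.1 were used, and functions were tested on simulated data. The keratins, classes, lists and motifs were chosen with earlier results of these data known. Genes were named if they were open keratins, simple epithelial keratins, KRT1, KRT5, KRT10 or KRT14, keratins that changed state under an alternative, or, for other lists, those in the minority state and of highest fold. DSP, TP63 and the neighbours of strong or missing sites were added after their values were seen. Some promoter sequences and 1 marker gene are not reported here.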

Additional observations from a re-analysis of the deposited data

How the results depend on the processing

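No paired analysis was possible because no groups could be paired in 1 library. Removing genes or sequence with a copy elsewhere was chosen after the data were seen. The number of open keratins was 6, against 61.4% of all protein-coding genes, and 13 with a window of 2.5 kb on either side, against 70.3%. With that window, open keratins outside the simple class rose from 2 to 9. Their number fell to 1 with canonical transcripts only, which drops KRT15, and to 1 when KRT23 and KRT80 were counted as simple epithelial. With canonical transcripts only, 52.2% of all protein-coding genes were open. Open simple epithelial keratins fell from 4 to 2 of 5 with a score above 200, which drops KRT18 and KRT19. The share of all protein-coding genes was also lower with that score, but it stayed above the share of these keratins. With a score above 100 and above 200, the density of the type II cluster was 40.8 and 28.1 per Mb against 20.6 and 13.9 over the genome. The density of the type I cluster was 7.22 per Mb with a score above 200 and 36.4 without copied sequence. The fewer peaks follow from the minimum itself. Of 25 folds of open keratins under alternatives, 4 left their interval: KRT18 took the intron 1 summit, 43.3, with 1 kb or 2.5 kb to both sides, KRT19 took the upstream site, 40.7, with 2.5 kb, and KRT8 took 27.3 at its canonical TSS. Of 30 motif shares 25 stayed within their interval, and the TEAD share was 37.9% with a score above 200 against 10.1% of all summits. Of 18 list counts 14 stayed within 1.5 times. Depth limits the weakest promoter peaks, KRT19 and KRT18 at pileups of 10 and 15, and any accessibility under a pileup of 9 was not detectable.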

Other observations

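Keratin pseudogenes, most of them named after KRT8 and KRT18, were counted after the other results had been seen. Over all 15233 annotated pseudogenes, 3.69% had a promoter peak and 3.58% had a summit inside. Of 51 KRT8 pseudogenes, 0 had a promoter peak and 2 had a summit inside. Of 68 KRT18 pseudogenes, 2 had a promoter peak, KRT18P60 with a fold of 8.76 and KRT18P3 with a fold of 5.67, and 3 had a summit inside. Of 32 other keratin pseudogenes, 12 of which lie within the clusters, 0 had a promoter peak and 4 had a summit inside. Of the 61 peaks outside the primary chromosomes, 0 lay on the 4 alternative sequences that match the type I cluster.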
